A study of Mus musculus with 15 samples.

Results

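The thymus, where T cells develop, holds a scaffold of fibroblasts around its vessels, under its capsule and within its lobules. The profile described here is that of these fibroblasts at rest, in untreated young male wild-type (WT) mice. It covers the 5 untreated libraries among the 15 of the series, chosen by their treatment label alone. The other 10 libraries, from mice that had received 425 rad of irradiation 1 or 3 days earlier, were not used. The labels give a sort for CD34 and PDGFRα, surface proteins of mesenchymal cells, without CD45 of leukocytes and CD31 of endothelium, and also list EpCAM, an epithelial protein, as positive. The thymi were dissociated with Liberase TH and DNase, and cells were sorted into lysis buffer. RNA was read with MARS-seq, a 3′ method that counts captured mRNA molecules by unique molecular identifiers (UMIs). The labels number the replicates but do not say whether each came from its own mouse, so the spread given below may be technical as well as biological.

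Fibroblasts build the extracellular matrix, a mesh of collagen fibrils, elastic fibres and proteoglycans, and they secrete the signals by which neighbouring cells find, feed and shape each other. In the thymus they are known as a source of fibroblast growth factors, BMPs and Wnt regulators for epithelial cells, and of chemokines and colony-stimulating factors for blood-derived cells. Fibroblasts of the capsule and vessel walls, often marked by Pi16 and Dpp4, are usually told apart from those inside the lobules, which carry more basement membrane genes. All cells here had been freed by enzymes before lysis, and genes of the early response to stress are known to be induced by such handling. Their level before dissociation cannot be told apart from the level after it.

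Levels are counts per 1000000 UMIs of the library's total over named genes (CPM), and each value after ± is the SD over the 5 libraries. One molecule gives at most 1 UMI whatever its length, so levels of different genes are set side by side on this scale without a length correction, although capture can still differ between genes. Totals ran from 1102176 UMIs in replicate 1 to 2661621 in replicate 4, and 1 UMI in the smallest library was worth 0.907 CPM. Of 12763 genes in the table, 7795 had a mean of at least 10 CPM, 1552 of at least 100 and 156 of at least 1000. The libraries held a UMI of 12015 to 12439 genes each, and after thinning to 1102176 UMIs this range was 11921 to 12040. Replicate 1 had the smallest total, and it was the lowest of the 5 libraries for 37.6% of the 5717 genes averaging at least 20 CPM and the highest for 26.1% of them. Its median log2 difference from the mean of the others was 0.06 for the 1403 genes with the shortest transcripts and -0.21 for the 1403 with the longest, while the other replicates stayed between -0.05 and 0.08. Each value that turns on replicate 1 below shares this feature, and its part in them was not tested.

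The genes that define the sort were present and those it excludes were nearly absent, except that EpCAM did not follow its label. Pdgfra, the receptor for platelet-derived growth factor (chromosome 5, 75152292 to 75198215 on GRCm38), was at 280.4, 373, 310.1, 402 and 326 CPM in replicates 1 to 5. Cd34 (chromosome 1, 194938819 to 194961279) was at 1609, 1711, 1738, 1649 and 1845 CPM. Col1a1, a chain of type I collagen (chromosome 11, 94936224 to 94953042), was at 1096, 1697, 1613, 1708 and 1279.9 CPM. All 3 genes were well above the range of rare transcripts in each library, and Cd34 had a coefficient of variation (CV, the SD as a percentage of the mean) of 5.31%. Ptprc, which encodes CD45, averaged 3.20 ± 0.779 CPM and Pecam1, which encodes CD31, 2.97 ± 1.68 CPM. Epcam gave 11 UMIs in all 5 libraries together and 0 in 3 of them, so the transcripts go against EpCAM as a positive mark.

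Fibroblast products filled the top of the profile. The 50 most abundant genes held 22.6 ± 0.974% of all UMIs, and 302 genes held 50%. Of those 50 genes, 23 stood in the lists of matrix or secreted proteins, 8 encoded ribosomal proteins, 4 were heat-shock genes and 1, Fos, was an immediate-early gene. Dcn, which encodes the collagen-binding proteoglycan decorin (chromosome 10, 97479609 to 97518143), was the most abundant, at 16088, 17074, 16769, 19031 and 17716 CPM in replicates 1 to 5. Replicate 4 held the highest value and replicate 1 the lowest, and the CV was 6.43%. Gsn, which encodes the actin-severing protein gelsolin, stood next with 19606, 11825, 11225, 13554 and 14119.5 CPM. It was highest in replicate 1, where it exceeded Dcn, and lower than Dcn in the other libraries.

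**Figure D1:**
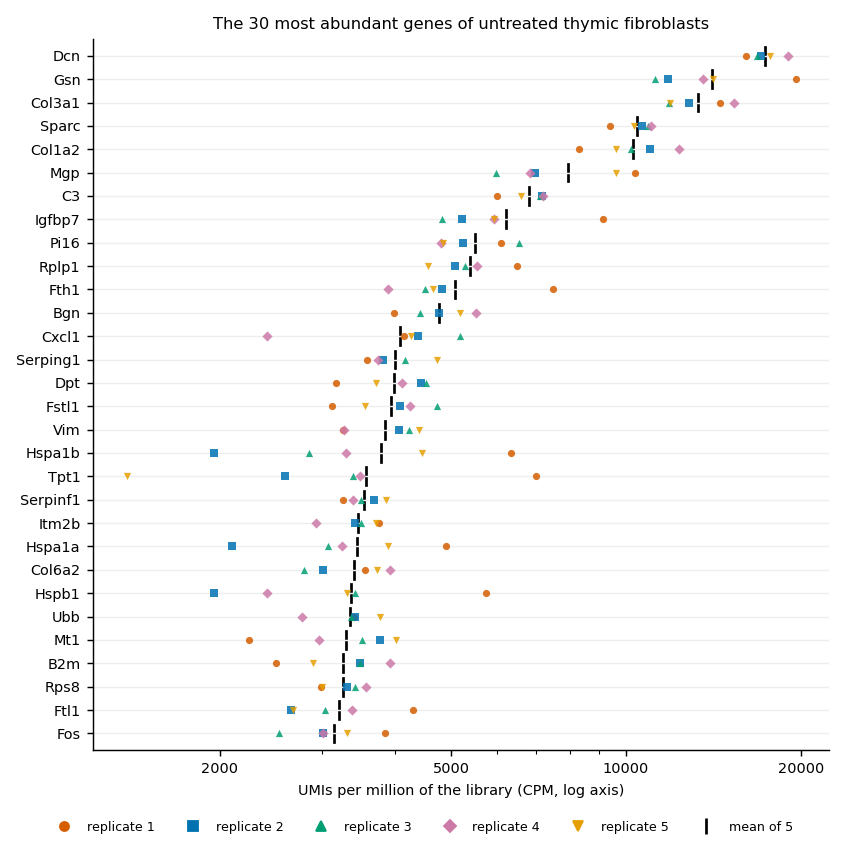
Each row is a gene and each point a library, with CPM on a log axis and a bar at the mean of 5. Dcn leads at 17336 CPM on average, Gsn and Igfbp7 have replicate 1 on the far right, and Tpt1, Hspa1b and Hspb1 have the widest scatter of these 30 genes.

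After them came Col3a1 at 13296 ± 1573 CPM, which encodes type III collagen, and Sparc at 10458 ± 671, whose product binds collagen and calcium. Col1a2, the other chain of type I collagen, was at 10287 ± 1512 CPM. Mgp, an inhibitor of calcification, was at 7953 ± 1925 CPM, and C3, the central complement component, at 6812 ± 518. Igfbp7, a secreted insulin-like growth factor binding protein, was at 6203 ± 1695 CPM, and Pi16, a marker of adventitial fibroblasts, at 5506 ± 782. Thus 8 of the first 10 genes stood in the matrix or secreted lists, the exceptions being Gsn and the ribosomal gene Rplp1. Vim, the intermediate filament of mesenchymal cells, was at 3847 ± 544 CPM. Mt1 and Mt2, the metallothioneins that bind zinc and copper, were at 3302 ± 711 and 2908 ± 696 CPM and kept a ratio of 1.02 to 1.26 in the 5 libraries.

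Matrix genes took 16.4 ± 0.684% of UMIs, the largest share of the 5 classes of lists, and 176 of the 206 members with a row reached 10 CPM. Collagens that form fibrils summed to 27016 ± 2738 CPM over 8 genes. Col1a1 and Col1a2 encode partners in type I collagen, in which the product of Col1a1 is the more numerous chain. Col1a2 UMIs outnumbered those of Col1a1 by 7.02 ± 0.581 times. This ratio ran from 6.33 to 7.57 and was above 1 in all 5 libraries. Type V collagen, which sets fibril width, was represented by Col5a1 at 1141 ± 192 CPM and Col5a3 at 606 ± 61.2, with Col5a2 at 130.4 ± 36.8. Type VI collagen, which forms beaded filaments around cells, was led by Col6a2 at 3403 ± 482 CPM and Col6a1 at 2298 ± 313, with Col6a3 at 627 ± 98.3. Col14a1, which decorates fibril surfaces, had 789.5 ± 48.5 CPM and a CV of 6.15%.

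The proteoglycan list was led by Dcn, and Bgn, which encodes biglycan, followed at 4773 ± 601 CPM. Lum, Prelp and Ogn, of the same leucine-rich family, were at 1094, 979.9 and 883 CPM. Has1, a synthase of hyaluronan, was at 442, 958, 893, 572 and 1031 CPM, with replicate 1 lowest and replicate 4 next. Vcan, the large proteoglycan versican that binds hyaluronan, was at 51.6 ± 6.42 CPM. Elastic fibre genes summed to 14500.0 ± 556 CPM, and all 18 members with a row reached 10 CPM. They were led by Mfap5 at 2791, Fbn1, the fibrillin of microfibrils, at 2503, and Eln, which encodes elastin itself, at 2267 CPM.

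Basement membrane genes summed to 10611 ± 1343 CPM. Nid1, the linker nidogen, was at 1852 ± 327 CPM, Smoc2 at 1528 ± 255, and Col15a1, a collagen of the zone beneath basement membranes, at 1311 ± 227. Type IV collagen, the network former, was seen as Col4a1 at 1135 ± 272 CPM and Col4a2 at 787 ± 81.7. Laminin subunits Lamb1, Lamb2 and Lama2 were at 669, 658 and 651 CPM. Among the 15 genes of this list with a mean of at least 20 CPM, 10 were lowest in replicate 1, against 37.6% of all such genes.

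Genes for the handling of matrix stood beside those for its parts. Serpinh1, the collagen chaperone, was at 1824 ± 494 CPM, and Pcolce, which speeds the trimming of procollagen, at 2705 ± 374. Bmp1, which despite its name encodes the procollagen-trimming protease, was at 941 ± 73 CPM. The crosslinking enzymes Loxl1, Lox and Loxl2 were at 749.8, 484 and 454 CPM. For breakdown, Mmp2, a gelatinase, was at 1694, 2117, 2019, 2118 and 2047 CPM, and Timp2, an inhibitor that also serves to activate it, at 2859, 3142, 3620.1, 3033 and 2934 CPM. Both were present in steady amounts, and Timp2 exceeded Mmp2 in all 5 libraries, with a ratio of 1.43 to 1.79. Mmp14 was at 328 CPM and Mmp3 at 135. Of the 12 ADAMTS genes averaging at least 20 CPM, 11 were lowest in replicate 1, against 37.6% of all such genes. Adamts4, an aggrecan-cleaving protease, was the widest of them, at 23.6, 183, 163, 91.7 and 106 CPM.

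Secreted signals and enzymes took 8.48 ± 0.294% of UMIs, and 165 of 263 members with a row reached 10 CPM. This share overlaps that of the matrix class, because genes such as Igfbp7, Serping1, Dpt and Htra3 stand in both. Chemokines summed to 7290.1, 10292, 11072, 6204 and 9998 CPM in replicates 1 to 5, and 19 of 30 members with a row reached 10 CPM. Cxcl1, which draws neutrophils (chromosome 5, 90891241 to 90893115), was the most abundant, at 4153, 4391, 5174, 2411 and 4263 CPM. Replicate 4 was the low value, and the others lay between 4153 and 5174 CPM. Ccl2 and Ccl7, which draw monocytes, were at 619, 2002, 2138, 839 and 1926 and at 392, 1271, 1380.2, 696 and 1147 CPM. In both, replicates 1 and 4 were the lowest and replicate 3 the highest. Ccl11, the eosinophil attractant eotaxin, was steadier, at 901, 1026, 1045, 1341 and 1259 CPM. Cxcl12, which retains cells that carry CXCR4, was at 221, 252, 209, 189 and 196 CPM, and Cxcl10, an interferon-induced chemokine, at 419 ± 113. Cxcl14, a chemokine of resting tissues, was at 102 ± 24.2 CPM, and Ccl19, which guides cells with CCR7 and shares sequence with near-identical copies, at 14.1 ± 7.31.

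Among cytokines and growth factors of the interleukin list, Csf1 was the most abundant. Csf1, which sustains macrophages, was at 338, 652, 678, 429 and 572 CPM, and Il34, which encodes another ligand of the same receptor, at 123, 87.1, 108, 163 and 105. Csf1 exceeded Il34 in all 5 libraries, by 2.64 to 7.49 times. Il33, an alarmin stored in the nucleus, was at 493, 426, 459, 387 and 502 CPM with a CV of 10.5%. Its 5 values lay close together, while Il6, a cytokine of inflammation (chromosome 5, 30013114 to 30019981), was at 112, 558, 595, 246 and 469 CPM. Il6 was lowest in replicate 1 and next lowest in replicate 4. Ptn and Mdk, a pair of related heparin-binding growth factors, were at 445 ± 119 and 258 ± 73.1 CPM. Flt3l, a growth factor for dendritic cell precursors, was at 137 ± 31.4 CPM, Kitl, the ligand of KIT on early progenitors, at 27.6 ± 5.90, and Tslp, an alarmin of type-2 immunity, at 12.2 ± 3.13. Tslp rested on 135 UMIs over the 5 libraries.

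Several chemokines and inflammatory genes shared their order of libraries, as did genes of other lists. Replicates 1 and 4 were the lowest libraries for 6 of the 12 chemokines with a mean of at least 20 CPM, against 16.1% of all 5717 genes. Among immediate-early genes the count was 8 of 21. In the interleukin list it was 2 of 14, a share not above that of all genes. This order was looked for after the values of Ccl2, Ccl7 and Il6 had been seen, and these genes are among those counted. It was not particular to inflammatory genes. It was also seen for 5 of 12 ADAMTS genes, 6 of 18 plasminogen system, cathepsin and serpin genes and 8 of 25 surface and adhesion genes. Of 15 basement membrane genes it was seen for 0. Ptgs2, the inducible cyclooxygenase, was at 122, 283, 325, 116 and 174 CPM and Ptx3, a soluble pattern recognition protein, at 136, 405, 425, 183 and 358. Both had replicates 1 and 4 as their lowest values and replicate 3 as their highest.

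Of 9 FGF genes with a row, 4 reached 10 CPM. Fgf18 led at 99.6 ± 15.1 CPM. Fgf10, which acts on epithelial FGFR2 and is required for the growth of the thymic rudiment, was at 59, 89.7, 79.3, 119 and 72.5 CPM. Fgf7, the keratinocyte growth factor, was at 56.3, 47.5, 39.8, 53.4 and 52.7 CPM, and Fgf1 at 50.7 ± 13. The lowest Fgf10 value, 59 CPM, lay just above the highest Fgf7 value, 56.3 CPM. Both came from replicate 1, the smallest library, and so small a gap does not rank the genes there. Bmp4, a morphogen for thymic epithelium, was at 188, 255, 232, 303 and 254 CPM, with replicate 4 highest and replicate 1 lowest. Tgfb3 and Tgfb2 were at 106 ± 14.4 and 93.9 ± 17.9 CPM, and Tgfb1 at 17.3 ± 2.52. Igf1 was at 198 ± 40.6 CPM and Igf2 at 116 ± 48.2. The binding proteins Igfbp4, Igfbp6 and Igfbp5 were at 2925, 2643 and 1143 CPM, well above both growth factors.

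Genes for proteins that bind, restrain or process these ligands had far more UMIs than genes for the ligands. Protein was not measured. The BMP and TGF-beta modulators summed to 12378 ± 389 CPM, against 1621 ± 124 for the ligand list, which includes the protease gene Bmp1. The modulator list also holds protease genes, namely Htra3 and Htra1, the latter at 656 ± 71.5 CPM. Fstl1, a follistatin-like protein, was at 3948 ± 626 CPM, Nbl1, a BMP antagonist, at 2798 ± 449.6, and Htra3, a secreted protease, at 2795 ± 132. Fstl1 exceeded Bmp4 by 14 to 20.4 times in the 5 libraries. Wnt ligands were led by Wnt11, Wnt9a and Wnt2 at 67.4, 56.3 and 52.2 CPM, and 6 of 11 reached 10 CPM. Among Wnt antagonists, Sfrp1, Sfrp2 and Sfrp4 were at 355 ± 113, 329 ± 47 and 293 ± 84.1 CPM, and Dkk2 at 296 ± 111. The Wnt enhancer Rspo1 was at 62.3 ± 26.1 CPM and Rspo3 at 13.7 ± 5.70. Of the 4 Notch ligands with a row, Jag1 alone reached 10 CPM, at 13.4 ± 2.89, and Dll4, the ligand of early T cell commitment, was at 0.926 ± 0.753.

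**Figure D2:**
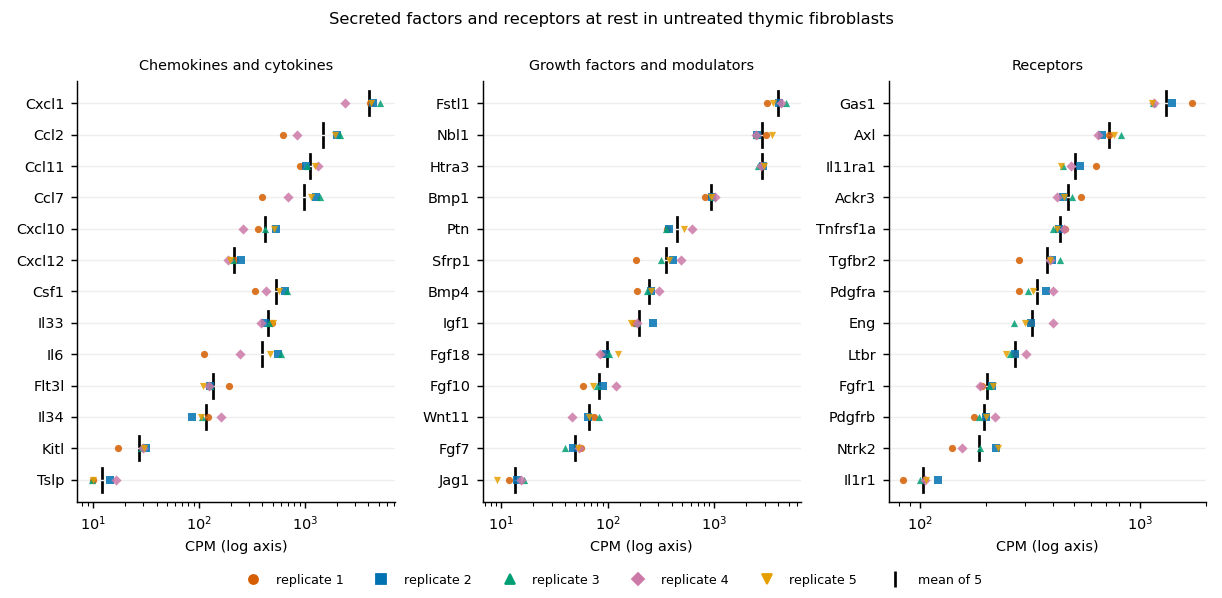
Points give CPM on a log axis in each of the 5 libraries for selected chemokines and cytokines, growth factors and their modulators, and receptors, with a bar at the mean. Il6, Ccl2 and Ccl7 have replicate 1 at the far left, and Il33, Htra3 and Tnfrsf1a have their 5 points close together.

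Complement genes summed to 13350.0, 15765, 15680.1, 15383 and 15877 CPM in replicates 1 to 5, and replicate 1 was the lowest. C3 was followed by Serping1, the C1 inhibitor, at 4007 ± 454 CPM, and by the proteases C1s1 and C1ra at 1427 ± 147 and 881 ± 113. Cfb, an activator of the alternative pathway, was at 743 ± 72.3 CPM. C4b was at 209.6 CPM, and its reads may be shared with its near copy C4a. Guidance cues were led by Slit3 at 284 ± 36.3 CPM and Sema3c at 226 ± 50.8, which steer growing axons and vessels. Gas6, a bridge between dying cells and TAM receptors, was at 332 ± 51 CPM. Angptl2, Angptl4 and Vegfa were at 342, 331 and 125 CPM. Hsd11b1, which regenerates active glucocorticoid inside cells, was at 801 ± 132 CPM, and Enpp2, which makes lysophosphatidic acid, at 773 ± 116.

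Receptors and surface proteins took 2.55 ± 0.136% of UMIs, and 153 of 252 members with a row reached 10 CPM. Of this share, 1.22% of UMIs came from the list of surface markers and adhesion proteins, not all of which are receptors. Axl, the receptor for Gas6, was the most abundant receptor tyrosine kinase, at 723, 672, 817, 642 and 763 CPM, and it exceeded Gas6 in all 5 libraries. Pdgfra and Pdgfrb, the latter at 196 ± 16.8 CPM, were both present throughout. Ddr2, a collagen receptor, was at 308 ± 68.2 CPM, Fgfr1 at 202 ± 12.5 and Ntrk2, the receptor for brain-derived neurotrophic factor, at 186 ± 38.7. In the TGF-beta family, Tgfbr2 was at 378 ± 57.5 CPM, the co-receptors Eng and Tgfbr3 at 321 ± 50.2 and 227 ± 27.4, and Bmpr1a and Bmpr2 at 49.9 and 47.1. For Hedgehog signals, the co-receptors Gas1, Boc and Cdon were at 1314, 205 and 170.2 CPM, with Smo at 68.6 and Ptch1, a receptor and target of the pathway, at 7.16.

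Of 51 cytokine receptor genes with a row, 33 reached 10 CPM. Il11ra1 led at 508 ± 79.7 CPM, and Il6st, the shared signalling chain gp130, was at 255 ± 45.4. Il6ra, which lets a cell answer IL-6 by itself, was at 26.4 ± 9.18 CPM, and Osmr, the receptor of oncostatin M, at 43.6, 125, 124, 92.4 and 135. Osmr was lowest in replicate 1. Tnfrsf1a was at 455, 429, 401, 451 and 421 CPM with a CV of 5.15%, and Ltbr, the lymphotoxin receptor, at 269, 269.6, 257, 304 and 247 CPM. These receptors were among the steadiest, while Tnfrsf12a, the receptor of TWEAK, ranged from 234 CPM in replicate 4 to 582 in replicate 5. Its ligand Tnfsf12 was at 251 ± 20.5 CPM. Ifnar2 and Ifngr1, chains of the interferon receptors, were at 224 and 158 CPM, and Il1r1 was at 103 ± 13.4. Among receptors for type-2 signals, Crlf2, a chain of the TSLP receptor, was at 63.8 ± 6.82 CPM, Il13ra1 at 49 ± 12.4, Il4ra at 9.84 ± 2.33 and the IL-33 receptor Il1rl1 at 2.51 ± 1.41.

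The chemokine receptor list was held by atypical receptors, which bind chemokines without the usual signal. Ackr3, which takes up CXCL12, was at 539.8, 444, 489, 419 and 450.4 CPM, and Ackr4, which takes up CCL19, CCL21 and CCL25, at 159, 198, 209, 163 and 255. Ackr1 and Ackr2 were at 58.7 and 33.7 CPM, and Ccrl2 at 20.5. Of the 5 remaining genes with a row, all signalling receptors, Ccr7 was the highest at 3.89 ± 2.37 CPM, and Cxcr4 was at 1.57 ± 0.804. For hormones and lipids, Ramp2, which pairs with the adrenomedullin receptor Calcrl, was at 353 ± 53.6 CPM and Calcrl at 59.2 ± 6.83. Lpar1, a receptor for lysophosphatidic acid, was at 131 ± 22.3 CPM. Surface proteins were led by Ly6a, known as Sca-1, at 2811 ± 488 CPM, Cd248, the mesenchymal protein endosialin, at 1793 ± 197, and Thy1 at 560.2 ± 87.7. Pdpn, podoplanin of lymphoid stroma, was at 64.4, 245, 220.3, 175 and 179 CPM, with replicate 1 far below the others. Integrins were led by Itgb5, Itgb1 and the collagen-binding subunit Itga11 at 319, 273 and 120.0 CPM.

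Transcription factors took 3.55 ± 0.280% of UMIs, and 194 of 292 members with a row reached 10 CPM. Genes of the immediate-early response dominated them, with a sum of 21678, 18425, 17429, 16649 and 21982 CPM in replicates 1 to 5. Fos, a partner in AP-1 (chromosome 12, 85473890 to 85477273), was at 3844, 3015, 2526, 3009 and 3309.6 CPM, and Egr1, a zinc finger factor, at 2491, 2034, 2329, 2294 and 2422. Fos was highest in replicate 1, and Egr1 had a CV of 7.55%. Zfp36, an RNA-binding protein that speeds mRNA decay and stands in this list, was at 2086 ± 346 CPM. Jun, Fosb and Junb were at 1804 ± 573, 1688 ± 288 and 1609.7 ± 306 CPM, and Atf3 and Nr4a1 at 1491 ± 342 and 1031 ± 232. Of the 21 genes of this list with a mean of at least 20 CPM, 10 were highest in replicate 5 and 10 were lowest in replicate 4, against 20.6% and 15.1% of all such genes. Klf4, a zinc finger factor that can also respond early to stimuli, was at 2452 ± 466 CPM, Klf2 at 571 ± 99.6, and Id3, an inhibitor of helix-loop-helix factors, at 2165 ± 388.

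**Figure D3:**
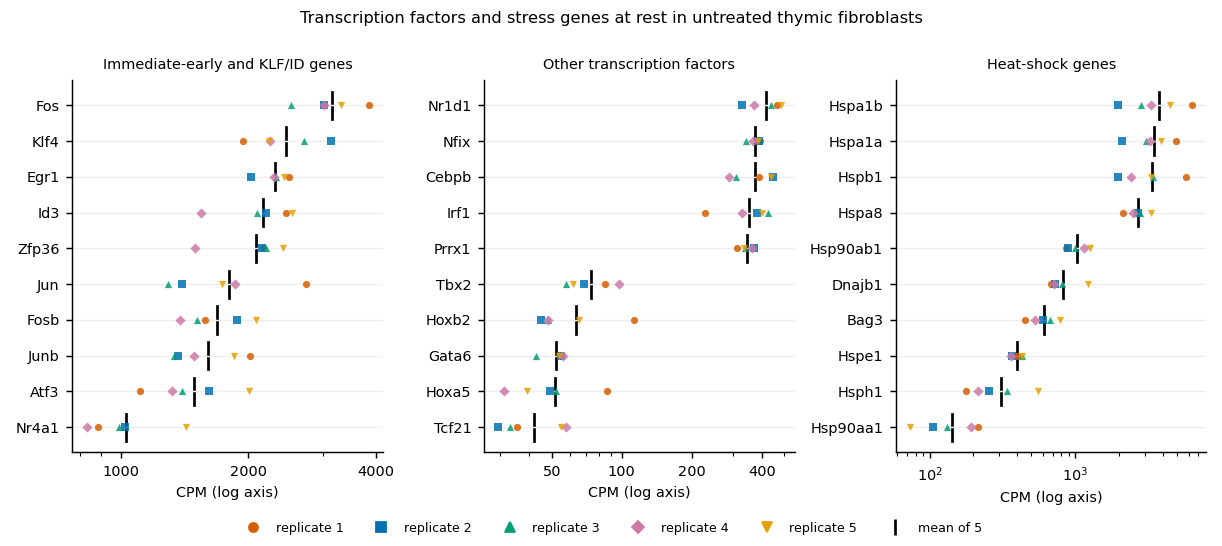
CPM on a log axis in each library for immediate-early and related genes, other transcription factors and heat-shock genes, with a bar at the mean. Egr1, Nfix and Prrx1 have narrow scatter, and Hspa1b, Hspb1 and Hsph1 spread widely, with replicate 1 or replicate 5 highest.

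Factors known from mesenchyme were at lower levels than the immediate-early genes named above, with CVs that differed widely. Prrx1, a marker of mesenchyme, was at 315, 372, 339, 363 and 336 CPM, and Nfix, of the nuclear factor I family, at 393, 389, 343, 366 and 385. Their CVs were 6.66% and 5.58%, against 48.9% for Meox1. Twist1, Msx1 and Zeb1, known in mesenchyme or in the shift from epithelium to it, were at 153 ± 17.7, 103 ± 17.8 and 106 ± 14 CPM, and Tshz2 was at 139.5 ± 12.1. Meox1 and Meox2 were at 45 ± 22 and 45.2 ± 12.6 CPM, Tcf21 at 42.1 ± 13.1, and Gata6 at 52.4 ± 5.34. Nr1d1, a repressor in the circadian clock, was at 418 ± 65.4 CPM, and Nr3c1, the glucocorticoid receptor, at 120.5 ± 13.3. Among inflammatory factors, Irf1 was at 354 ± 79.6 CPM, Rela and Nfkb1 at 159 and 96.6, Stat3 at 125 and Stat6, the factor behind IL-4 and IL-13 receptors, at 83.5. Relb was at 69.2 and Nfkb2 at 139 CPM, the pair that lymphotoxin signals release.

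HOX genes record position along the body axis, and those of low number are expressed toward the head and neck. Of 18 HOX genes with a row, the 13 of groups 1 to 5 summed to 254 ± 69.1 CPM of 282 ± 72.9 for all. Hoxb2, Hoxa5 and Hoxa3, the last required for the thymus to form, were at 113, 44.9, 48.4, 48.1 and 65.6, at 86.2, 49.3, 52.3, 31.2 and 39.3 and at 49.9, 25.1, 23.8, 31.9 and 21.2 CPM. All were highest in replicate 1. The 1 gene with a row in groups 9 to 13 was at 1.64 ± 1.05 CPM. Tbx2 was at 74 ± 16.7 CPM and Tbx3 at 15.9 ± 4.09.

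Heat-shock genes, whose products refold damaged proteins, summed to 23201, 13033, 16932, 15969 and 20647 CPM in replicates 1 to 5. Hspa1b was at 6349, 1953, 2845, 3293 and 4462 CPM and Hspa1a at 4891, 2099, 3067, 3249 and 3895, and both encode the inducible HSP70. In both, replicate 1 was highest and replicate 2 lowest. Their ratio stayed between 0.928 and 1.30, and the genes are near copies. The last 300 bases of their GENCODE transcripts, the end that a 3′ method reads, were identical at 52.8% of 354 aligned positions. Whether reads were shared between the genes was not tested. Hspb1, a small heat-shock protein, was at 5731, 1953, 3413, 2412 and 3308 CPM with the same extremes. Hsph1 had another order, with 178, 254, 342, 215 and 554 CPM and its highest value in replicate 5. Hspa8, the constitutive member of the HSP70 family, was at 2673 ± 434 CPM, and Hspe1, a mitochondrial chaperonin, at 398 ± 31.7 with a CV of 7.96%. Of the 13 genes of the list with a mean of at least 20 CPM, 7 were highest in replicate 5 and 4 in replicate 1, against 20.6% and 26.1% of all such genes.

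The 3 most abundant inducible heat-shock genes are shown with the stretch of 150 bases before the annotated start, from RefSeq on GRCm38.p6, because their levels in the libraries had the same extremes and their promoters can be compared letter by letter. Capitals mark each match to GAANNTTC, a core of the element bound by heat-shock factors, which reads the same on both strands.
Hspa1a (chr17:34972157-34972306, minus strand): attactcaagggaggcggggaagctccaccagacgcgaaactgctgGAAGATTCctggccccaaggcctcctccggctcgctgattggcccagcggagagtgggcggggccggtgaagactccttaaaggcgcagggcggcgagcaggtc
Hspa1b (chr17:34959239-34959388, minus strand): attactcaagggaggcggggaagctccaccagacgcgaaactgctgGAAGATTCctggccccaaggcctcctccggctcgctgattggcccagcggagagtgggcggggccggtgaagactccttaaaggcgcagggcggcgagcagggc
Hspb1 (chr5:135887769-135887918, plus strand): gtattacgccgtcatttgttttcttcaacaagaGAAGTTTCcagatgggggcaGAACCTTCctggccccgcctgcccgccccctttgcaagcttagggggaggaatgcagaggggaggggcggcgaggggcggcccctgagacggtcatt
The Hspa1a and Hspa1b stretches were identical at 149 of 150 bases, and each held 1 match, which began 104 bases before the start. Hspb1 held 2 matches, which began 117 and 97 bases before the start. Over the window from 250 bases before to 50 after the start, GAANNTTC occurred in 8 of the 11 heat-shock genes that had a promoter in the table, which is 72.7%. It occurred in 9.04% of all 27025 genes with a promoter and in 11.1% of 36 such genes among the 50 most abundant. A match in letters is a description of the sequence and not evidence of binding in these cells.

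Of 31 cell cycle genes with a row, 15 reached 10 CPM and 10 reached 20 CPM, and the list summed to 1475 ± 51.0 CPM. Mki67 and Top2a, which mark dividing cells, averaged below 10 CPM, at 8.44 ± 2.28 and 9.87 ± 4.44. Cdkn1c and Cdkn1a, inhibitors of the cell cycle, were at 295 ± 15.8 and 212 ± 37.2 CPM, and Ccnd3 and Ccnd1, cyclins of early cycle, at 348 ± 29.8 and 185 ± 41.7. Imprinted genes, several of which restrain growth, summed to 5733 ± 270.4 CPM with a CV of 4.72%. They were led by Gnas at 2537 ± 91.1 CPM, and H19 and Meg3, a pair of long noncoding RNAs, were at 810.1 ± 188 and 795 ± 70.4. Ddx3y and Eif2s3y, on the Y chromosome, had UMIs in all 5 libraries, at 57.2, 124, 111, 97.3 and 99.3 and at 32.7, 31.7, 28.1, 32.3 and 26.3 CPM. Interferon-induced genes summed to 2573 ± 321 CPM, led by Ifi27l2a at 854 ± 185 and Bst2 at 549.9 ± 167. Class I antigen presentation was represented by B2m at 3256 ± 560.3 CPM, with H2-D1 and H2-K1, which share sequence with other class I genes, at 2067 ± 448 and 1288 ± 302.

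The 5 libraries gave similar levels for most genes. Spearman correlations between pairs of libraries over genes ran from 0.899 to 0.970, as a description over genes that share library and depth. Pairs with replicate 1 gave 0.899 to 0.914, and pairs without it 0.939 to 0.970. For the 5717 genes averaging at least 20 CPM, the median CV was 15.7%, and 5% of genes lay below 6.37% and 5% above 34.2%. Counting of UMIs alone gives a median CV of 9.75% for these genes, and edgeR's biological coefficient of variation, which sets counting error aside, had a median of 14.8%. edgeR draws each gene's value toward those of other genes, so it is not the spread measured for that gene alone. A CV below that of counting was seen for 982 genes. Between 500 and 2000 CPM, where counting gives a median of 2.52%, the median CV was 15.9%, so depth was not the limit there. Among genes that averaged 200 CPM or more, the lowest CVs belonged to Selenof, a selenoprotein of the endoplasmic reticulum, at 2.0%, Ndufa7, a subunit of respiratory complex I, at 2.66%, and Ech1, an enzyme of fatty acid oxidation, at 2.75%. Gnas followed at 3.59%. Counting alone gives a CV of 2.87% for Selenof, 4.03% for Ndufa7 and 4.67% for Ech1, each above the observed value. Their low CVs therefore do not show that these genes are steadier than others. For Gnas counting gives 1.43%, below its observed CV.

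A CV over 50% was found for 50 of the 5717 genes, which is 0.875%. Without replicate 1 the count was 31, of which 25 were among the 50. Replicate 1 held the highest value for 23 of the 50 and replicate 5 the lowest for 16, against 26.1% and 18.0% of all 5717 genes. By list, 8 of the 50 were secreted factors, out of 137 such genes at this level, and 5 were antigen presentation genes. A further 31 stood in none of the 5 classes of lists, among them the mesothelial markers Upk3b, Msln and Krt19. The matrix genes among the 50 were Adamts4, Col6a4 and Mmp9, the receptors and surface proteins Mrgprg and Sdc4, and the transcription factor list gave Id1.

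**Figure D4:**
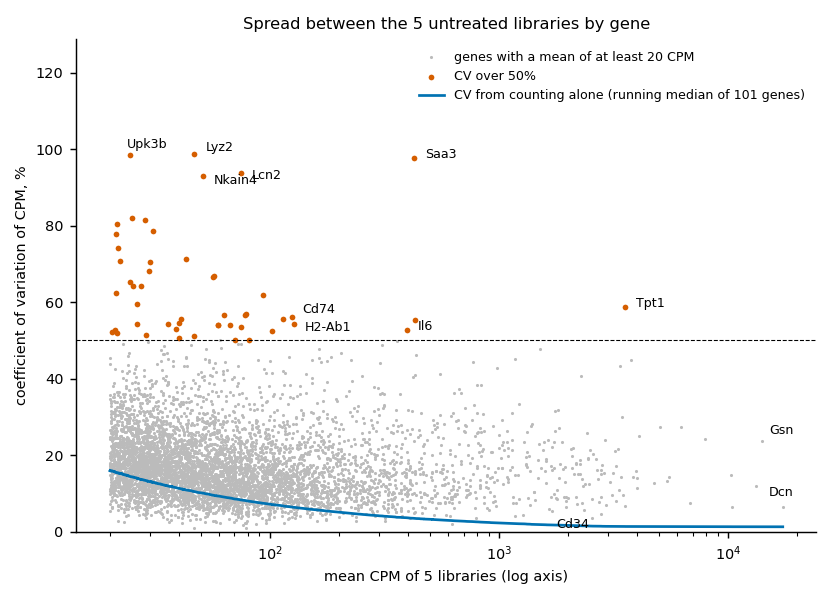
Each point is a gene with a mean of at least 20 CPM, by mean CPM on a log axis and CV in percent, and the line is the CV that counting alone gives. The 50 genes above the dashed line at 50% lie mostly under 100 CPM, with Saa3, Il6 and Tpt1 to the right.

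Lyz2, the lysozyme of macrophages and granulocytes, had the widest spread, at 119.8, 58.9, 8.20, 7.89 and 39.3 CPM. It was high in replicates 1 and 2, and its mean without replicate 1 was 28.6 CPM in place of 46.8. C1qb and C1qa, complement genes that macrophages make, were at 59.9, 44, 11.7, 3.76 and 23.1 and at 35.4, 40.9, 8.20, 3.38 and 18 CPM, high in the same libraries and lowest in replicate 4. Genes of class II antigen presentation had another order. Cd74, the invariant chain, was at 172, 175, 177, 58.6 and 37.9 CPM and H2-Ab1 at 193, 138, 194, 61.6 and 50.3. Replicates 1, 2 and 3 were above replicates 4 and 5 for Cd74, H2-Ab1, H2-Aa and H2-Eb1. The 18 macrophage and dendritic cell markers with a row, among which are Lyz2, C1qa, C1qb, Cd74, H2-Aa and H2-Ab1, summed to 865, 777, 663, 252 and 308 CPM in replicates 1 to 5. Of these 18 markers, 11 reached 10 CPM. Adgre1, Mrc1 and Itgam, members of the same list, averaged 0.949, 0.600 and 0.605 CPM, and Csf1r averaged 8.43. Whether cells of that type account for these values was not tested, and in bulk RNA fewer cells of a type and less RNA per cell cannot be told apart.

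Markers of mesothelium, the sheet of cells that covers the organs of the chest, made up a further group. Upk3b was at 66.2, 20.7, 5.86, 10.1 and 19.9 CPM, Msln at 89.8, 55, 18, 21 and 100.2 and Krt19 at 58.1, 26.4, 10.5, 10.1 and 44.8. In each, replicates 3 and 4 held the lowest values, and replicate 1 or replicate 5 the highest. Nkain4, which stands in no marker list, had replicates 1 and 5 highest and replicates 3 and 4 lowest, with 129.7, 41.3, 12.9, 15.8 and 55.9 CPM. Without replicate 1 the mean of Upk3b was 14.1 CPM in place of 24.6, and that of Nkain4 31.5 in place of 51.1. The 8 mesothelial markers with a row summed to 527, 329, 227, 168 and 407 CPM, and 5 of the 7 above 20 CPM were highest in replicate 1, against 26.1% of all such genes. Wt1, also expressed in other mesenchyme, had replicate 3 as its highest, with 118, 138, 145, 61.2 and 111 CPM. The part of mesothelial cells in these values was not tested.

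Saa3 and Lcn2, acute-phase proteins, were high in replicate 5 alone. Saa3 was at 280.4, 263, 256, 168 and 1169 CPM and Lcn2 at 49.9, 48.4, 37.1, 37.9 and 199. Without replicate 5 their means were 242 and 43.3 CPM in place of 427 and 74.4. The granulocyte markers, several of which are made together with Lcn2 in neutrophils, summed to 2.72, 3.96, 5.47, 3.38 and 2.77 CPM over the 5 genes with a row. These sums rest on few UMIs, and the part of neutrophils in the Lcn2 values was not tested. Il6 stood on the other side, with replicate 1 at 112 CPM and the others between 246 and 595. Tpt1, an abundant translationally controlled gene with many processed copies in the genome, was at 6996, 2585, 3384, 3484 and 1382 CPM and was the 1 gene over 2000 CPM with a CV above 50%. Its copies make its level uncertain. Ribosomal protein genes summed to 100700.0, 97399.8, 102328, 103704 and 80471 CPM, and 38 of 70 were lowest in replicate 5, against 18.0% of all genes averaging at least 20 CPM.

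Markers of both described kinds of fibroblast were detected in each library. The 16 markers listed for adventitial or capsular fibroblasts all averaged above 20 CPM and summed to 12121, 12817, 15371, 11669 and 12363 CPM in replicates 1 to 5. The 14 listed for fibroblasts inside the lobules did so too, with a sum of 7595, 10258, 8470.4, 10248 and 9658 CPM. Of the 16 markers of the first list, 11 were highest in replicate 3, against 15.7% of all genes averaging at least 20 CPM. Among them Pi16 was at 6092, 5238, 6554, 4806 and 4842 CPM, Anxa3 at 397, 486, 767, 474 and 504 and Sema3c at 208, 208, 316, 212 and 189. None of the 14 markers of the second list was highest in replicate 3, and 4 were lowest there. Of the 8 markers of the sort and of fibroblasts in general, 7 were highest in replicate 4, against 21.4% of all such genes. Lowest in replicate 1 were 7 of these 8, against 37.6%. The lists do not assign transcripts to cells, so the mix of the kinds of fibroblast in a library was not measured.

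**Figure D5:**
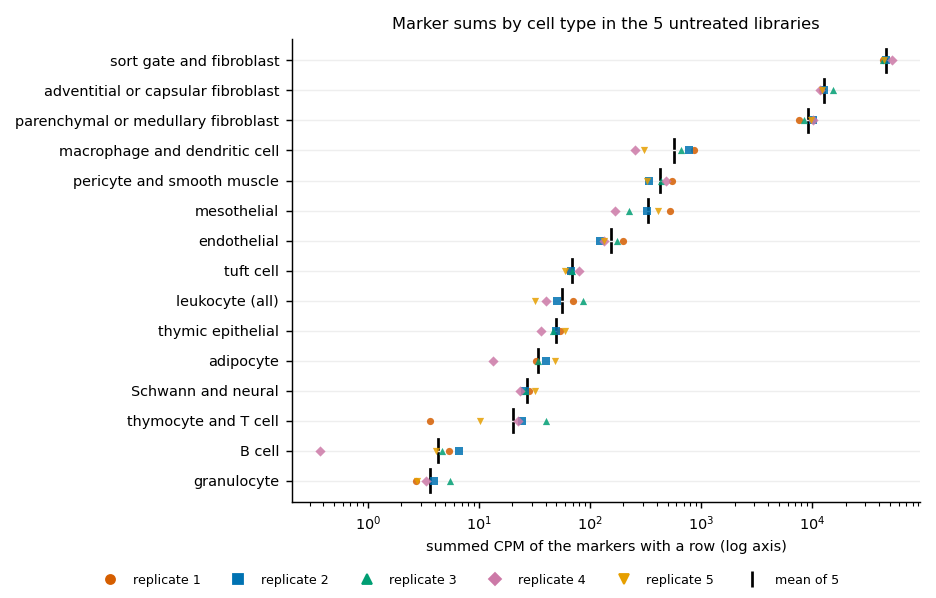
Summed CPM of each marker list on a log axis, with a point for each of the 5 libraries and a bar at the mean. The fibroblast lists lie at 7595 CPM or more in every library, macrophage and mesothelial sums differ several-fold between libraries, and the granulocyte sum stays between 2.72 and 5.47 CPM.

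Marker lists of the other cell types had lower sums than the fibroblast lists. Endothelial markers summed to 199.6, 123, 176, 133 and 134 CPM, most of it Plvap at 74.6 ± 40.0 and Tek at 48.6 ± 17.2, while Cdh5 was at 0.430. Pericyte and smooth muscle markers summed to 552, 339, 433, 483 and 326 CPM, led by Des at 224 ± 70.0, with Acta2 at 2.20. Thymocyte markers summed to 3.63, 24.6, 40.2, 22.5 and 10.2 CPM over the 6 genes with a row, and thymic epithelial markers to 53.5, 49.7, 46.9, 36.4 and 59.6 CPM over 8. Of the 3 tuft cell markers with a row, Dclk1, which other cells also express, was at 63.9 ± 6.54 CPM and the others under 4 CPM. Cdh5, Acta2 and Epcam, markers of 3 of these types, were thus near the value of a few UMIs per library, but other members of their lists were higher. Of the markers with a row, 3 of 9 endothelial, 7 of 12 pericyte and smooth muscle and 2 of 8 thymic epithelial ones reached 10 CPM. Whether cells of these types account for the values was not tested.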

How the data were processed

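Fibroblast libraries from 5 untreated mouse thymus samples were read with MARS-seq, and only these columns were used here. The deposited table holds raw UMI counts per gene, which the authors had not scaled, per the file headers. Tools listed in the submitters' processing notes are HTSeq, STAR 2.5.2b, DESeq2, cutadapt and bcl2fastq, beside the mouse build mm10, and the role of each is not given in the sources used here. Every gene in the table reached at least 6 UMIs in some library of the series, so genes of lower counts are not represented. No row lacked a gene name, and genes of the mitochondrial genome were not analysed here.

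Counts were divided by each library's total to give CPM, so a shift of a few abundant genes moves all others. Spread was given as SD and CV beside the CV from counting, and as edgeR's biological coefficient of variation from a fit with an intercept only to 8663 genes kept by filterByExpr, with TMM scaling. There is a single group and hence no test and no p-value. The counts of 2 libraries differed by at least 2.93 in chi-square per gene, above the noise of sampling UMIs, so each was counted as a replicate. This does not show that they came from different mice. The code was tested on simulated data. R 4.3.3, edgeR 4.0.16, Python 3.11.15, numpy 2.4.6, pandas 2.3.3 and matplotlib 3.10.9 were used, gene positions are those of GENCODE vM21 on GRCm38, and promoters those of RefSeq. Alternatives were TMM or RLE scaling, thinning to the smallest total, totals without the 50 most abundant genes, other filters and leaving out each library.

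The members and gene lists were chosen with earlier results of these data known, from general knowledge. Names were taken from the 30 most abundant genes, up to 8 members of each list by level, the 20 widest and 10 narrowest genes, the cell type markers and a fixed set. This rule admits 518 genes, of which some are not reported here. Outside it, 26 genes were chosen after their values were seen, namely Ccl19, Col6a4, Crlf2, H2-Eb1, Hspe1, Hsph1, Id1, Il13ra1, Il1r1, Il4ra, Il6ra, Meox1, Meox2, Mki67, Mmp3, Mt2, Pdpn, Ptx3, Relb, Rspo3, Sdc4, Stat6, Tcf21, Tgfb1, Top2a and Vcan.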

Additional observations from a re-analysis of the deposited data

Results flagged for a closer look

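Of 330 printed levels and sums over the 5 libraries, 33 had a library whose gap to the nearest other exceeded 0.71 of the whole range. For independent, normally distributed values such a gap arises in about 1 in 20. That rate does not hold for this set and gives no yardstick here. Some genes were named for a wide CV or after their values were seen, and some sums contain named genes. Replicate 1 was the library apart in 17 of them. That library also had the smallest total and lower levels of genes with long transcripts, and the part of these features in its values was not tested.

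Values high in replicate 1 were those of the growth factor binding protein Igfbp7, with 9113 CPM against 4826 to 5934 in the others, and of the class I genes H2-D1, with 2863 CPM against 1780.2 to 1947, and H2-K1, with 1821 CPM against 1123 to 1239. Flt3l had 191 CPM against 110.4 to 129, the adrenomedullin receptor partner Ramp2 446 CPM against 309 to 338, Plvap 145 CPM against 50.1 to 67.3, Meox1 83.5 CPM against 29.3 to 40.6 and Upk3b 66.2 CPM against 5.86 to 20.7. The sum of insulin-like growth factors and binding proteins was 17567 CPM against 12338 to 13183, and that of T-box and HOX factors 537 CPM against 339.5 to 379.8. Values low in replicate 1 were those of matrix genes, with Col5a1 at 803 CPM against 1171 to 1263, Lama2 at 318 CPM against 709 to 768, Loxl2 at 254 CPM against 466 to 531 and Mmp2 at 1694 CPM against 2019 to 2118. Tgfbr2 stood there at 280.4 CPM against 389.8 to 433, Kitl at 17.2 CPM against 28.5 to 31.7, and the complement sum at 13350.0 CPM against 15383 to 15877.

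In replicate 2, Igf1 was high at 269 CPM against 167 to 189, as was Adgre1 at 3.52 CPM against 0 to 0.462. Adgre1 and Epcam rest on 11 UMIs each and Cdh5 on 5, too few to rank the libraries. In replicate 3 the adventitial markers Anxa3 and Sema3c were high, at 767 CPM against 397 to 504 and at 316 CPM against 189 to 212, as were Ackr2 at 51.2 CPM against 25.4 to 32.8 and Epcam at 3.52 CPM against 0 to 0.751, while Gata6 was low at 43 CPM against 53.6 to 56. In replicate 4, Ccnd3 was low at 296 CPM against 355 to 368 and Zfp36 at 1497 CPM against 2152 to 2411, and Atp5md was high at 59.7 CPM against 8.17 to 22.9 and Ptch1 at 10.5 CPM against 5.86 to 6.60. In replicate 5, Saa3 was high at 1169 CPM against 168 to 280.4, Lcn2 at 199 CPM against 37.1 to 49.9, the proteoglycan gene Sdc4 at 79 CPM against 27.3 to 34.4 and Cdh5 at 1.39 CPM against 0 to 0.391. The ribosomal protein sum was low there, at 80471 CPM against 97399.8 to 103704.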

How the results depend on the processing

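No paired analysis was possible because the description covers a single group and contains no test. TMM and RLE scaling and thinning to 1102176 UMIs kept the number of genes at 10 CPM between 7773 and 7799 and kept all 50 of the most abundant genes. With 10 CPM asked of every library, 6757 genes were left. Leaving out a library in turn gave a median CV of 12.3 to 16.3%, between 31 and 74 genes with a CV over 50%, and a common biological coefficient of variation of 13.6 to 17.7%, against 15.7%, 50 and 16.2% with all 5. The lowest value in each case came without replicate 1, and the cause was not tested. The median CV was 21.8% over genes with at least 1 UMI in every library, a set that includes genes of few UMIs. A mean of at least 50 CPM left 22 genes of high spread, and 5 genes had a highest value at least 3 times their median. Totals without the 50 most abundant genes raised every level by construction, by 0.37 on the log2 scale. The shares became 11.0% for secreted factors, 3.30% for receptors and surface proteins, 21.2% for matrix, 4.58% for transcription factors and 17.2% for state genes. Under this scaling 185 of 261 gene means and all 54 list sums moved by more than 1 SD. Under TMM and RLE scaling and thinning the gene means moved by less than 1 SD, as did the list sums except that of SOX, GATA and RUNX factors after thinning. Leaving out 1 of 5 libraries cannot move a mean by 1 SD whatever the values, so this measure does not test it. Without replicate 5, for example, the mean of Saa3 was 242 CPM in place of 427. Depth limits genes of few UMIs, such as Epcam with 11 and Cdh5 with 5 over all libraries, whose order between libraries rests on counts too small to rank.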

Other observations

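Among the 20 widest genes, Sult1e1, which encodes an estrogen sulfotransferase, was at 27.2, 72.1, 78.5, 6.76 and 31.4 CPM in replicates 1 to 5, and Hp, the acute-phase haemoglobin binder haptoglobin, at 26.3, 67.3, 111, 15.4 and 63.3. In both, replicates 3 and 2 held high values and replicate 4 the lowest. Krtdap and Lgals7, known from stratified epithelium, were at 9.98, 21.5, 51.9, 15.8 and 26.8 and at 69.9, 25.5, 13.7, 9.39 and 35.1 CPM, and Slpi, a secreted protease inhibitor, at 48.1, 17.2, 3.12, 11.6 and 27.3. Krtdap was highest in replicate 3. Lgals7 and Slpi, like Nkain4, were highest in replicates 1 and 5 and lowest in replicates 3 and 4. Atp5md, a small subunit of the mitochondrial ATP synthase, was at 8.17, 22.9, 21.9, 59.7 and 12 CPM. Without replicate 4 its mean was 16.2 CPM in place of 24.9. AF357425 and Gm12669, for which no role is given here, were at 5.44, 47.5, 19.5, 24 and 12 and at 49.9, 22.9, 18.7, 24.8 and 6.0 CPM.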
